A study of Arabidopsis thaliana with 24 samples.

Results

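Extensins are structural proteins of the plant cell wall, and transcripts of 9 Arabidopsis thaliana extensin genes were followed here in roots and shoots under osmotic shock. The 9 genes were chosen by their lower counts in roots held in polyethylene glycol (PEG) than in roots held in water, so their root values are given as a description and carry no test. They were taken by gene identifier, and all 9 were found among the 18240 genes of the table. They are EXT12 (AT4G13390), EXT13 (AT5G35190), EXT6 (AT2G24980), AT5G06630, EXT10 (AT5G06640), AT4G08400, AT4G08410, AT1G26250 and EXT3 (AT1G21310). All 9 passed the filter on low counts in roots, where 10941 genes were tested, and 2 of them, AT1G26250 and EXT3, passed it in shoots, where 13769 genes were tested.

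The samples were wild-type Columbia-0 seedlings 7 days old, held in 30% (w/v) PEG of average molecular weight 8000 for 1, 2 or 3 h, with seedlings in water for 1 h as the control. Each replicate pooled 30 to 50 seedlings, and root and shoot were parted after the treatment. Each of the 8 groups (root and shoot, PEG at 3 times and water) held 3 biological replicates, which gave 24 libraries. Water was sampled at 1 h alone, so each PEG time was set against the same 3 water libraries, and values at different PEG times share that control. Libraries were made by MARS-seq, which counts transcripts from their 3′ ends, and held 1332586 to 5495746 counts in roots and 343397 to 4009409 in shoots. Levels are given as CPM, counts scaled by TMM to a common library total, and are compared between groups for 1 gene, not between genes.

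In the endomembrane system, extensins have prolines of their repeats turned into hydroxyproline by prolyl 4-hydroxylases, and arabinose and galactose are then added. In the wall they are cross-linked through tyrosines by class III peroxidases into a network that stiffens the wall. In Arabidopsis roots many of them are made in root hair cells, and hairs of plants that lack several of them are short. Transcription of such genes in hair cells is driven by RSL and related bHLH factors, and the root hair element is a promoter sequence found before hair-cell genes.

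The repeats are shown because they define the family and could bear on how well short reads tell its members apart. A serine followed by 4 prolines was searched as TCNCCNCCNCCNCCN, in frame on the coding strand. This motif takes the TCN codons of serine and leaves out AGT and AGC. The 9 coding sequences held 14 to 42 such repeats, with EXT13 at 14 and EXT10 at 42, and the repeats made up 21.3% to 32.9% of the coding length. Of 27444 coding sequences in RefSeq (TAIR10.1), 254 (0.926%) held at least 1 repeat, and 23 held at least 14, of which 14 were not among the 9 genes. Stretches of 75 coding bases, each from a repeat onwards, are given for 5 genes, with the repeats in capitals.
EXT6, coding bases 232 to 306: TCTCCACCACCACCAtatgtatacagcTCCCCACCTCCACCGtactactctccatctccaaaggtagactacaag
AT4G08400, coding bases 271 to 345: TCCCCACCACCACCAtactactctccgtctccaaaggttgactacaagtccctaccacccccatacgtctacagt
AT4G08410, coding bases 325 to 399: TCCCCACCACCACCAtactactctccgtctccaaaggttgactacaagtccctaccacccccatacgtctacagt
AT1G26250, coding bases 205 to 279: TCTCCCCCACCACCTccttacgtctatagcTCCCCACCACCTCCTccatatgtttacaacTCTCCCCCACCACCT
EXT3, coding bases 97 to 171: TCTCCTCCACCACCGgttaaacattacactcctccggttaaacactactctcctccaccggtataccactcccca

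The stretches of AT4G08400 and AT4G08410 were read at different places of their coding sequences and were the same letter for letter. Over 1542 aligned coding bases these genes were 97.4% identical.

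The genes lie on 4 chromosomes of TAIR10.1. EXT12 (chr4:7783791-7785366, plus strand), EXT13 (chr5:13434151-13435424, plus strand) and EXT6 (chr2:10622396-10624309, plus strand) have none of the other members as a neighbour. AT5G06630 (chr5:2036312-2037855) and EXT10 (chr5:2039598-2041928) are neighbours on the minus strand. AT4G08400 (chr4:5323606-5325374) and AT4G08410 (chr4:5338819-5341209) lie on the minus strand with 1 coding gene, AT4G08406, between them. AT1G26250 (chr1:9083838-9085464) is on the plus strand and EXT3 (chr1:7453245-7455009) on the minus strand. EXT3 has 1 annotated intron and the others have none.

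Reads from the near-identical copies could be assigned to the wrong gene, and the deposited counts do not show how such reads were treated. Each transcript was therefore compared in windows of 60 bases with the transcripts of 36379 annotated genes. EXT12, EXT13, EXT10, AT1G26250 and EXT3 shared no window with another gene on the same strand. EXT6 and AT5G06630 shared 42 windows with each other, all within the last 300 bases, which hold 241 windows and are the part that 3′ counting reads most. AT4G08400 and AT4G08410 shared 52.5% and 39.3% of their windows with each other or with the extensin gene EXT11 (AT5G49080), and none in the last 300 bases. The counts of EXT6 and AT5G06630 are thus uncertain between these 2 genes, and those of AT4G08400 and AT4G08410 are uncertain as far as reads came from further upstream. On the other strand, AT1G26255 overlaps AT1G26250 over all 241 of its last windows. The sources used here do not give whether counting used the strand, so the 2 cannot be told apart. AT5G06645 overlaps EXT10 on the other strand in 501 windows, none of them in its last 300 bases. AT1G21313, which overlaps EXT3 on the other strand away from its 3′ end, had counts equal to 0.818% to 1.80% of those of EXT3 in root libraries.

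The promoters are shown because 7 of the 9 genes have a sequence in common there, which EXT3 and AT1G26250 do not have in the same window. Whether this sequence bears on the levels of the 9 genes in roots was not tested. The 250 bases before each annotated transcript start were searched on both strands for a relaxed core of the root hair element, TGNNNNCACG or TGNNNNNCACG. The core was present once in the promoters of EXT12, EXT13, EXT6, AT5G06630, EXT10, AT4G08400 and AT4G08410, always on the strand of the gene. It was present in 2474 of 27443 promoters of coding genes (9.02%). The promoter stretches of 66 bases around it follow, with the core in capitals.
EXT12, chr4:7783671-7783736, plus strand: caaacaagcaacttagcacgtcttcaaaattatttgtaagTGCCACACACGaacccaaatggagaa
EXT13, chr5:13433991-13434056, plus strand: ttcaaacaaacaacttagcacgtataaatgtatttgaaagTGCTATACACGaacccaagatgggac
EXT6, chr2:10622286-10622351, plus strand: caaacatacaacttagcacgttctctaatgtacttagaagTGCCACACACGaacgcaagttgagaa
AT5G06630, chr5:2037900-2037965, minus strand: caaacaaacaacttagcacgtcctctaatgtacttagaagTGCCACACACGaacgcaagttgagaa
EXT10, chr5:2041978-2042043, minus strand: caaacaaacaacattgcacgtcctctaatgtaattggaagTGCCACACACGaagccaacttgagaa
AT4G08400, chr4:5325435-5325500, minus strand: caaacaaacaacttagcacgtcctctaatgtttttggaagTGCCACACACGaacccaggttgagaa
AT4G08410, chr4:5341249-5341314, minus strand: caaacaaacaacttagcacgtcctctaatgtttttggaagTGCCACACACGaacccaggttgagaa

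The same 11 bases, TGCCACACACG, stood in 6 of these promoters, and EXT13 had TGCTATACACG. TGCCACACACG was found in 8 of the 27443 promoters (0.0292%), and the longest stretch shared by the 6 extensin promoters, AAGTGCCACACACGAA, in no promoter but those 6. Both sequences were read from these promoters themselves, whose printed stretches are alike beyond the core. Their rarity elsewhere is therefore a description and no test of an element. The other 2 promoters with the 11 bases belong to AT1G18960, which is not in the table, and AT1G30680, which had 43 counts over the root libraries and was not tested. The core began 65 to 120 bases before the transcript start, at 65 in AT4G08410 and at 120 in EXT13. A second short sequence, ACGTG on either strand, was present in the same 7 promoters and in 22.9% of all promoters. It is read from the other strand of the cacgt that stands upstream of the core in each stretch, and the 2 matches do not overlap. The stricter published form of the root hair element was in none of the 9 promoters and in 0.754% of all.

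**Figure D1:**
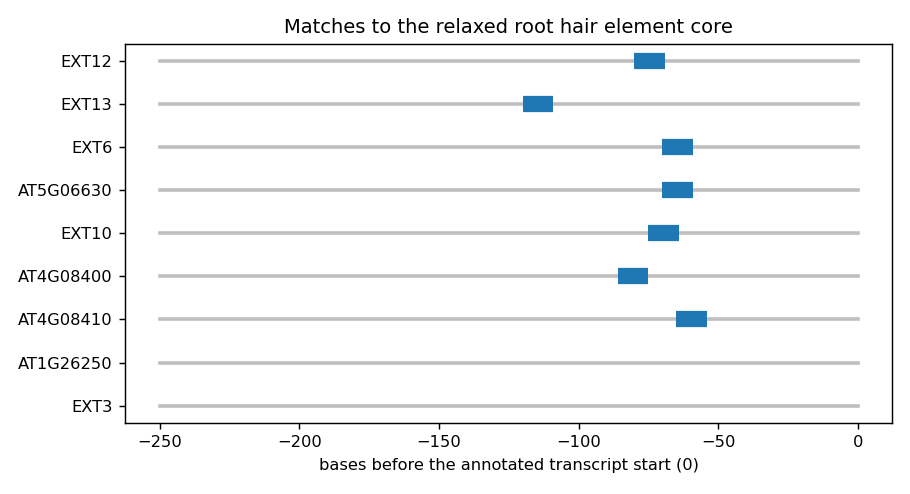
Position of the relaxed root hair element core (blue) in the 250 bases before the annotated transcript start (grey line) of the 9 extensin genes, with distance in bases on the horizontal axis. The core begins 65 to 120 bases before the start in 7 genes and has no match in AT1G26250 and EXT3.

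For comparison, the whole 250 bases before the start of EXT3, where neither sequence was matched, are given as chr1:7455010-7455259 on the minus strand.
EXT3: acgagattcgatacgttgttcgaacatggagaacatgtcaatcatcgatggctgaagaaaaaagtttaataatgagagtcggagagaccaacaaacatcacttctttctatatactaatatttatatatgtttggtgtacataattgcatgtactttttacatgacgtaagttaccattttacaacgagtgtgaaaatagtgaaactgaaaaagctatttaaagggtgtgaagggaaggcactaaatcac
AT1G26250, chr1:9083588-9083837 on the plus strand, likewise had no match.
AT1G26250: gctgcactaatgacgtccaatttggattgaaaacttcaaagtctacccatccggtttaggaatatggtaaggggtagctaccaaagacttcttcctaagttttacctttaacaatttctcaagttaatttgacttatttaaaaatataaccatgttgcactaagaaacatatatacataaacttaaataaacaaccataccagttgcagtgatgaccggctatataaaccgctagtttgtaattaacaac

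Other genes with the core were counted as well. Among 1060 of them tested in roots, 10.3%, 12.4% and 19.2% fell at 1, 2 and 3 h in PEG, against 9.06%, 12.3% and 19.5% of all genes tested in roots (edgeR quasi-likelihood test, Benjamini-Hochberg adjusted p under 0.05). Those that rose made up 12.5%, 14.4% and 23.5% of the 1060, against 11.5%, 12.7% and 21.1% of all genes tested.

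In roots the 7 genes with the core match were at a small share of their water level after 1 h in PEG and lower again at 2 h. Their summed level was 58.9, 73.0 and 95.7 CPM in the PEG libraries at 1 h, 44.1, 37.2 and 34.98 CPM at 2 h and 58.3, 50.1 and 39.2 CPM at 3 h, against 855, 815 and 816 CPM in the water libraries. Every PEG library lay below every water library, and the 2 h libraries were lowest on average, at 38.8 ± 4.78 CPM (SD, n = 3) against 829 ± 23.2 CPM in water (SD, n = 3). In 3′ counts of whole roots, fewer cells of a type and less RNA per cell cannot be told apart. The log2 fold changes of the 7 genes (PEG over water) lay between -3.79 and -3.31 at 1 h. They lay between -4.69 and -3.75 at 2 h and between -4.28 and -3.72 at 3 h, with standard errors of 0.160 to 0.434 over the 9 genes and the 3 times.

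EXT12, a root extensin, had the lowest fold change of the 9 at 2 h. It had 9.33, 11.4 and 11.96 CPM in root PEG libraries at 1 h, 6.603, 4.79 and 4.90 CPM at 2 h and 9.13, 9.13 and 4.87 CPM at 3 h, against 158, 120.2 and 157 CPM in root water libraries. The groups did not overlap, since the PEG library with the most counts of the gene held 54 and the water library with the fewest held 453. Its log2 fold change was -3.75 ± 0.211 at 1 h, -4.69 ± 0.215 at 2 h and -4.23 ± 0.198 at 3 h (standard error), so that the mean level in PEG at 2 h was 3.74% of that in water.

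EXT10, the member with the most repeats, had 17.9, 20.4 and 27.3 CPM in root PEG libraries at 1 h, 13.8, 11.6 and 8.74 CPM at 2 h and 18.7, 14.7 and 14.4 CPM at 3 h, against 194, 215 and 219 CPM in root water libraries. The groups did not overlap, and the 3 h libraries all lay above the 2 h libraries. Its log2 fold change was -3.31 ± 0.168 at 1 h, -4.17 ± 0.170 at 2 h and -3.72 ± 0.160 at 3 h (standard error). Its neighbour AT5G06630, another gene of serine-proline repeats, had log2 fold changes of -3.40, -4.58 and -4.18 at these times and levels of 5.07 to 23.1 CPM in PEG, against 137 to 165 CPM in water.

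EXT13 was the member with the fewest counts in roots. It had 7, 5 and 1 counts in PEG libraries at 1 h, 3, 9 and 4 at 2 h and 8, 8 and 3 at 3 h, against 72, 56 and 105 in water libraries. With so few counts its log2 fold changes of -3.43, -3.75 and -3.96 had the largest standard errors of the 9, 0.393 to 0.434. The other 3 genes with the core match, EXT6, AT4G08400 and AT4G08410, had log2 fold changes between -3.79 and -3.40 at 1 h and between -4.44 and -4.20 at 2 and 3 h.

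AT1G26250, a proline-rich extensin-like gene with no core match, was lower in PEG to a smaller degree. It had 30.9, 28.0 and 39.3 CPM in root PEG libraries at 1 h, 26.2, 18.6 and 29.4 CPM at 2 h and 22.4, 20.8 and 27.4 CPM at 3 h, against 131, 152 and 134 CPM in root water libraries. All PEG libraries lay below all water libraries, and the 2 h libraries overlapped those of 1 h and of 3 h, while every 1 h library lay above every 3 h library. Its log2 fold change was -2.13 ± 0.168 at 1 h, -2.49 ± 0.164 at 2 h and -2.56 ± 0.161 at 3 h (standard error).

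EXT3, whose mutant root-shoot-hypocotyl defective misplaces its cell plates in the embryo, was reduced least and kept a high level. It had 3040.2, 2903 and 4408 CPM in root PEG libraries at 1 h, 3261, 2486 and 2265 CPM at 2 h and 1502, 1685 and 2149 CPM at 3 h, against 7081, 6788 and 5995 CPM in root water libraries. The groups did not overlap, yet no PEG library held fewer than 5159 counts of the gene, so it was lower in PEG and not lost. Its log2 fold change was -0.94 ± 0.177 at 1 h, -1.31 ± 0.178 at 2 h and -1.90 ± 0.181 at 3 h (standard error).

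**Figure D2:**
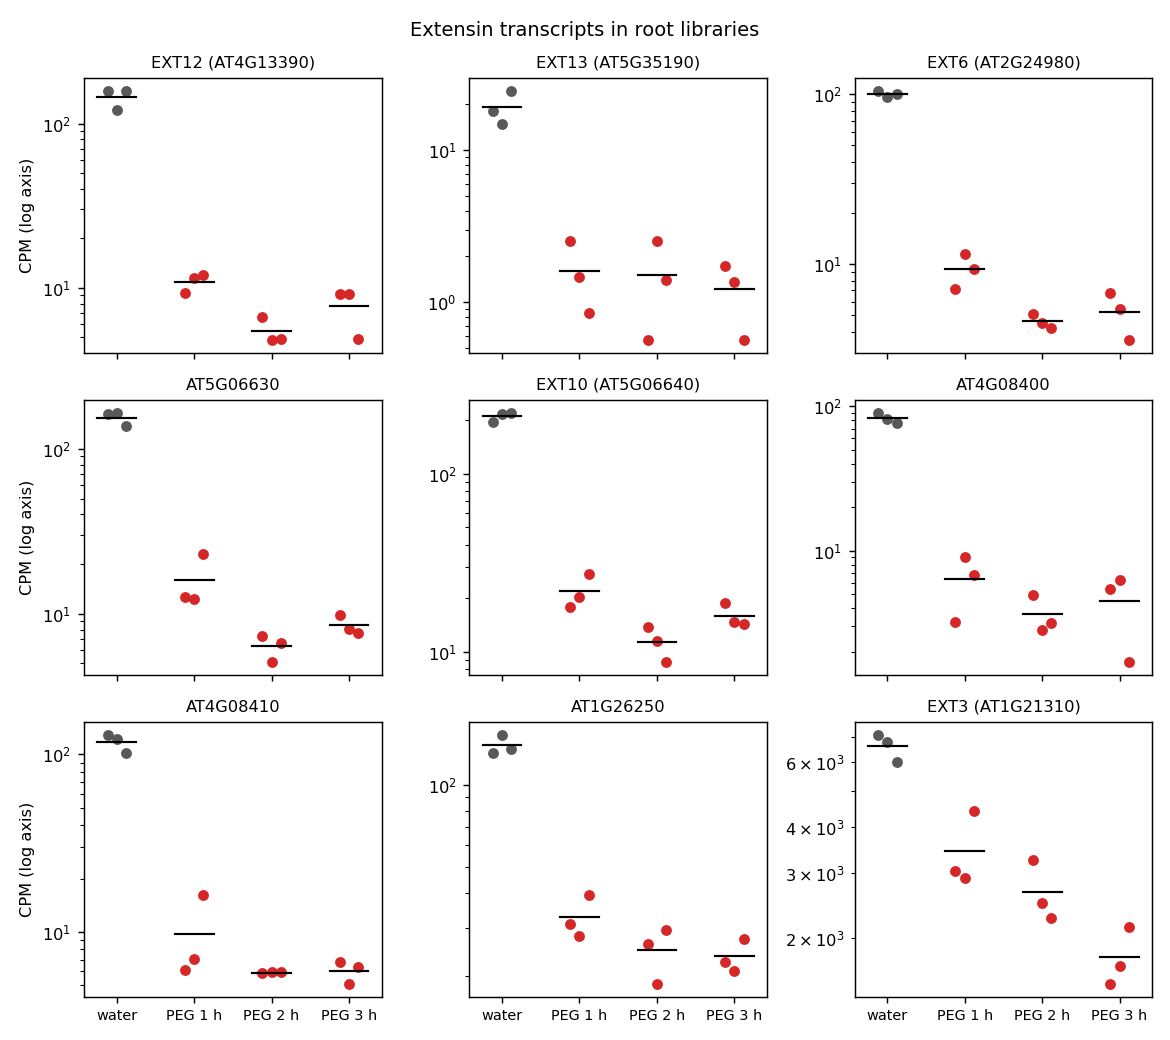
Levels of the 9 extensin genes in single root libraries in CPM on log axes, in water (grey) and after 1, 2 and 3 h in PEG (red); the line is the mean of 3 libraries, and each panel has its own scale. In every panel all 9 PEG libraries lie below all 3 water libraries, and the gap is narrowest for EXT3.

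All 3 PEG libraries lay below all 3 water libraries in 9 of the 9 genes at each time. The same was true of 17.4%, 20.6% and 25.1% of all genes tested at 1, 2 and 3 h, and since the 9 genes were chosen in this contrast nothing is read from their count. Ranked from the lowest log2 fold change among the 10941 genes, the 7 genes with the core match stood between ranks 2 and 17 at 1 h, 2 and 21 at 2 h and 4 and 18 at 3 h. AT1G26250 stood at ranks 93, 94 and 96, and EXT3 at 511, 359 and 220.

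The order in time was not the same for all members. From 2 h to 3 h the log2 fold change of PEG 3 h over PEG 2 h was 0.46 ± 0.255 for EXT12, 0.45 ± 0.184 for EXT10 and 0.40 ± 0.234 for AT5G06630, each with its standard error. Of the other 4 genes with the core match, it was 0.24 ± 0.427 for AT4G08400, 0.15 ± 0.253 for EXT6, 0.03 ± 0.268 for AT4G08410 and -0.21 ± 0.557 for EXT13, all smaller than the standard error. For EXT3 the same difference was -0.59 ± 0.176, and for AT1G26250 it was -0.07 ± 0.172 (standard error). EXT3 was thus at its lowest at 3 h, while 6 of the 7 genes with the core match, all but EXT13, had their lowest log2 fold change against water at 2 h, 3 of them by less than the standard error of the difference.

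**Figure D3:**
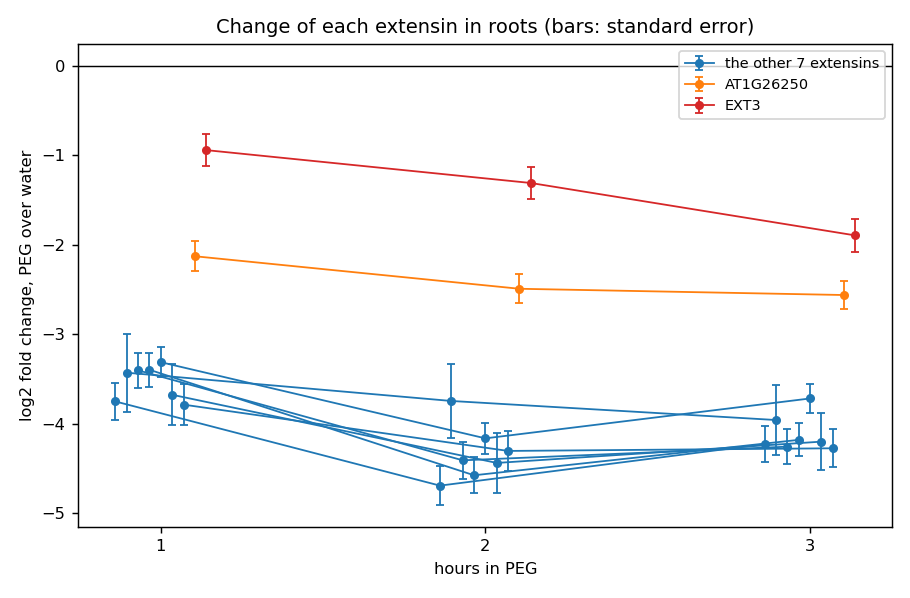
Log2 fold change of PEG over water in roots for each of the 9 extensin genes at 1, 2 and 3 h, with the standard error of the fit as bars; points of 1 time are spread sideways for legibility. The 7 genes with the promoter core (blue) lie between -3.31 and -4.69, AT1G26250 (orange) between -2.13 and -2.56 and EXT3 (red) between -0.94 and -1.90.

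Because the copies could exchange reads, their counts were also summed. EXT11, which shares windows with AT4G08400 and AT4G08410, is in neither sum below, so exchange with it is not covered. Named after its values were seen, it averaged 5.82, 2.61 and 2.23 CPM in root PEG at 1, 2 and 3 h, against 54.9 CPM in root water. The sum of all 9 was 46.9%, 36.0% and 24.4% of its water level at 1, 2 and 3 h in PEG, and was carried by EXT3. EXT3 made up 96.9%, 97.6% and 96.0% of the sum in PEG at 1, 2 and 3 h, against 87.2% in water. The log2 ratio of the sum of 9 was -1.12, -1.49 and -2.05 (standard error 0.206). Without EXT3 the sum of the other 8 genes had log2 ratios of -3.18, -3.94 and -3.74 (standard error 0.153), and its level was 11.2%, 6.56% and 7.51% of that in water.

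The root libraries also differed in the digit of a library code that the submitters' descriptions carry, whose meaning the labels do not give. The water libraries and replicate 1 of PEG at 1 h carry one digit and the other 8 PEG libraries another. Replicate 1 of PEG at 1 h, compared within its digit, had 9.33 CPM of EXT12, against 120.2 to 158 CPM in the water libraries, and 3040.2 CPM of EXT3, against 5995 to 7081 CPM. With the digit as a term, the log2 ratio of the sum of 9 was -1.27, -1.73 and -2.29, and that of the sum of 8 was -3.43, -4.32 and -4.12. That term rests on this 1 library.

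In shoots the 7 genes with the core match were nearly undetected in both conditions. Summed over the 7 genes, the PEG libraries held 4, 4 and 0 counts at 1 h, 6, 1 and 5 at 2 h and 2, 7 and 4 at 3 h, against 8, 33 and 21 counts in the water libraries. Every PEG library had fewer counts than every water library, but only narrowly, with 7 in the highest PEG library and 8 in the lowest water library. The shallowest, replicate 2 of PEG at 2 h, had 343397 counts in all. Its 1 count of these genes stood for 2.65 CPM, against 2.69 CPM in the lowest water library. A count of 0 allows up to 0.884 CPM in the PEG 1 h library where none of the 7 was counted, a limit that covers counting error only. These genes did not pass the filter in shoots and were not tested there. In water their root levels were higher than their shoot levels by log2 fold changes of 6.44 to 8.55 in a fit of all 24 libraries (standard errors 0.263 to 0.572). In that fit they passed the filter through the root libraries. EXT13 and AT4G08400, at the 2 ends of that range, each had 2 counts over the 3 shoot water libraries. The sizes thus rest on counts near 0 and are not ranked against the 3.57 of AT1G26250 and 4.89 of EXT3. Root water libraries were used to choose the genes, so these differences are a description. The fit did not pair root and shoot libraries of the same replicate letter.

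AT1G26250, whose counts may include those of the overlapping AT1G26255, fell in PEG-treated shoots, which played no part in choosing the genes. It had 17, 20 and 2 counts in shoot PEG libraries at 1 h, 11, 2 and 9 at 2 h and 5, 10 and 13 at 3 h, against 24, 64 and 37 counts in shoot water libraries. In CPM the PEG libraries held 0.589 to 5.41 and the water libraries 8.07 to 19.2, without overlap. The log2 fold change was -1.82 ± 0.426 at 1 h (adjusted p = 0.0140), -1.78 ± 0.494 at 2 h (adjusted p = 0.0213) and -2.28 ± 0.451 at 3 h (adjusted p = 0.000896; edgeR quasi-likelihood test, standard errors). Without replicate 2 of the water libraries the adjusted p was 0.0905 at 1 h and 0.0781 at 2 h. At 2 h it was also above 0.05 without PEG replicate 1 (0.125) or PEG replicate 3 (0.0702), and with that code digit fitted as well it was 0.0709 at 2 h and 0.191 at 3 h. Over 12 alternatives at each time the adjusted p lay between 0.00101 and 0.0905 at 1 h, between 0.00321 and 0.125 at 2 h and between 2.82e-05 and 0.191 at 3 h, while the log2 fold change lay between -2.21 and -1.33, -2.04 and -1.42, and -2.53 and -1.92 at the 3 times.

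EXT3 was present in shoots, and its difference there was not called. It had 188, 188 and 148 CPM in shoot PEG libraries at 1 h, 197, 212 and 156 CPM at 2 h and 125, 205 and 247 CPM at 3 h, against 238, 306 and 213 CPM in shoot water libraries. The groups did not overlap at 1 and 2 h and overlapped at 3 h. The log2 fold change was -0.53 ± 0.205 at 1 h (adjusted p = 0.157), -0.44 ± 0.212 at 2 h (adjusted p = 0.171) and -0.39 ± 0.204 at 3 h (adjusted p = 0.171; edgeR quasi-likelihood test, standard errors). Over 12 alternatives at 3 h its adjusted p ranged from 0.0388, without PEG replicate 3, where the log2 fold change was -0.62, to 0.992. Whether the root and shoot changes of EXT3 differ was not tested, since the root values chose the gene.

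Of all genes tested in shoots, 1.07%, 5.65% and 11.5% were lower and 4.25%, 8.19% and 14.5% were higher at 1, 2 and 3 h. Of the 2 extensin genes tested in shoots, 1 was lower at each time.

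**Figure D4:**
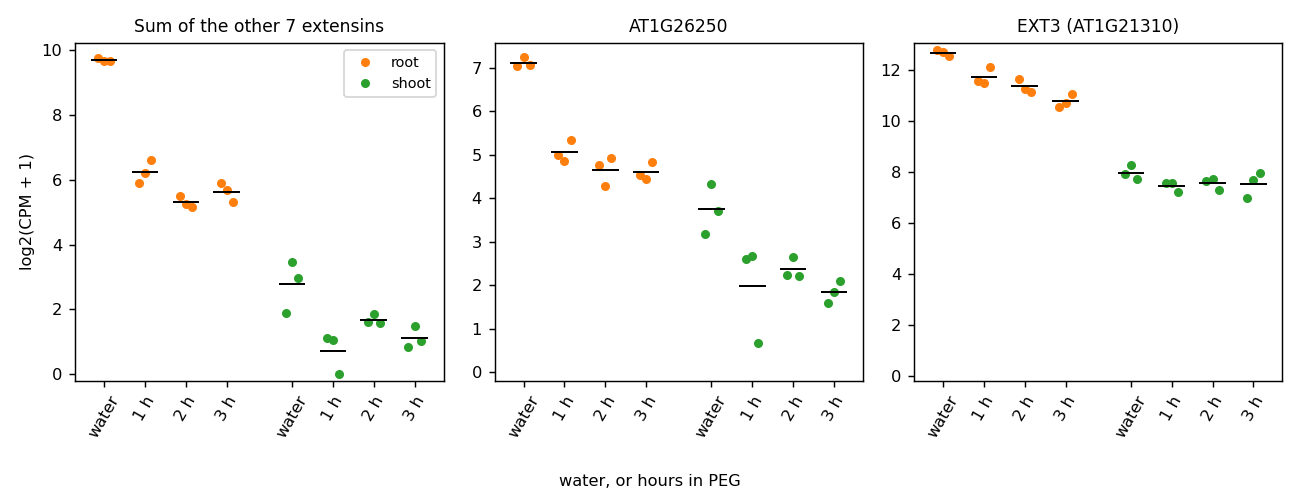
Log2(CPM + 1) in single root (orange) and shoot (green) libraries, in water and after 1, 2 and 3 h in PEG, for the sum of the other 7 extensins, for AT1G26250 and for EXT3; the line is the mean of 3 libraries. In shoots the summed 7 held 0 to 2.65 CPM in PEG and 2.69 to 9.91 CPM in water, and AT1G26250 is lower in PEG than in water in both organs.

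Genes related to the 9 by family or pathway were taken from 3 lists, which were chosen with earlier results of these data known. Their shares of falls beside those of all genes are therefore a description. Of 18 other extensins and extensin-like wall proteins tested in roots, 12, 14 and 14 fell at 1, 2 and 3 h and 0, 1 and 1 rose, with median log2 fold changes of -1.07, -1.40 and -1.97. Of 16 tested enzymes that modify extensins, 6, 9 and 9 fell and none rose, with medians of -0.78, -0.86 and -0.91. Of 17 tested root hair regulators and growth genes, 10 fell at each time and 1, 0 and 1 rose, with medians of -2.15, -2.56 and -2.42. The median over all genes tested was 0.03, 0.06 and 0.07, and 9.06%, 12.3% and 19.5% of all genes fell, as given above. Together 28, 33 and 33 of the 51 tested genes fell, out of 77 listed and 66 in the table.

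**Figure D5:**
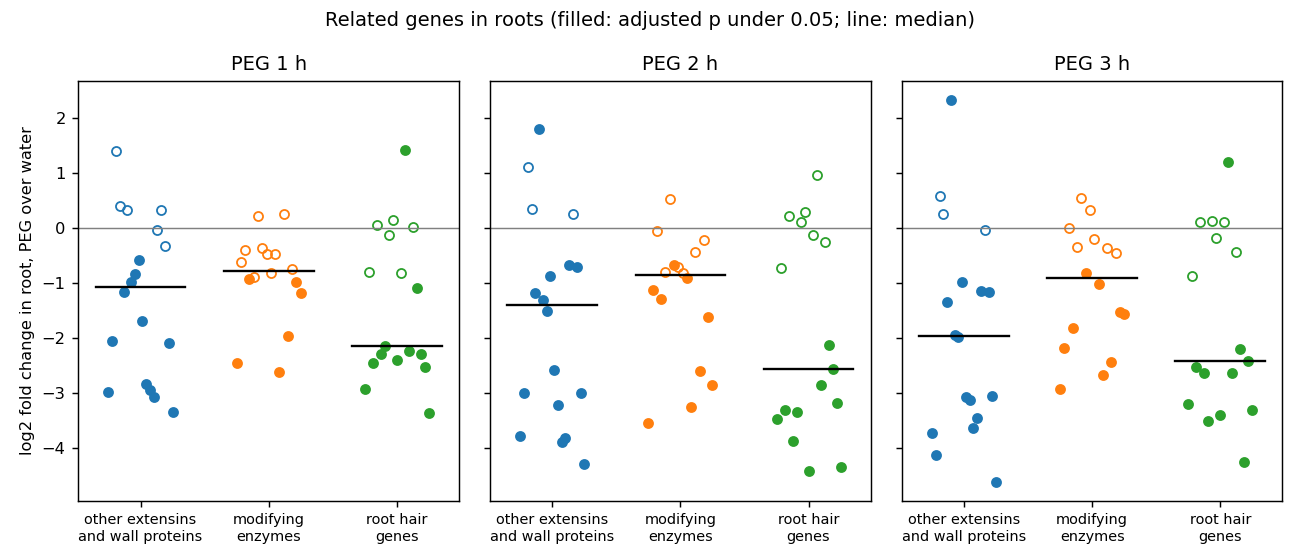
Log2 fold change of PEG over water in roots at 1, 2 and 3 h for tested genes of the 3 related lists, 1 point a gene, filled where the adjusted p was under 0.05; the black line is the median of the list. Most filled points lie below 0 in each list and at each time.

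Among the other extensins, the 6 with the highest level in roots were followed by name. AT2G43150, a proline-rich extensin-like gene of high level, averaged 4071, 3241 and 2068 CPM in PEG at 1, 2 and 3 h, against 7973 ± 463 CPM in water (SD, n = 3). It fell at each time, with log2 fold changes of -0.97, -1.298 and -1.95 (adjusted p = 0.00101, 4.47e-05 and 4.02e-07, edgeR). EXT4, the extensin also known as EXT1, fell by 1.16, 1.19 and 1.35. AT1G23720 and AT3G28550, extensins of many repeats, fell by 2.05, 3.00 and 4.13 and by 1.68, 2.58 and 3.08, both further at each later time. AT3G54580 fell by 2.84, 3.23 and 3.12. LRX3, a leucine-rich repeat extensin that binds RALF peptides at the wall, had a log2 fold change of -0.04 at 1 h and fell by 0.66 and 1.14 at 2 and 3 h.

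The 1 gene of this list that rose was AT2G15880, a leucine-rich repeat extensin, named here after its values were seen. It had a log2 fold change of 0.32 at 1 h, which was not called, and rose by 1.81 and 2.33 at 2 and 3 h. LRX1, the leucine-rich repeat extensin of root hairs, and its close relative LRX2 were likewise picked after their values were seen. LRX1 fell by 2.98, 3.78 and 3.72, while LRX2 had log2 fold changes of 0.40, 0.35 and 0.25, none called.

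Among enzymes, the 4 class III peroxidases of highest level fell at every time. AT5G17820 had log2 fold changes of -1.97, -2.61 and -2.43 at 1, 2 and 3 h and AT5G64120 of -0.97, -1.62 and -1.53. The corresponding values were -2.45, -3.55 and -2.93 for AT1G30870 and -2.61, -3.25 and -2.67 for AT4G26010. The hydroxyproline arabinosyltransferase AT2G25260 averaged 26.4, 20.6 and 14.0 CPM in PEG at 1, 2 and 3 h, against 49.7 ± 5.20 CPM in water (SD, n = 3), and fell by 0.92, 1.29 and 1.82. A second enzyme of that family, AT5G13500, had log2 fold changes of 0.25, -0.43 and -0.36, none called. Of the prolyl 4-hydroxylases tested, AT-P4H-1, P4H2 and P4H5, named after their values were seen, none was called at any time.

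Among root hair genes, EXPA18, an expansin that loosens the wall of growing hairs, fell at each time, with log2 fold changes of -2.46, -3.32 and -2.53. LRL3, a bHLH regulator of hair growth, fell likewise, with -2.52, -3.19 and -2.42. The related regulators LRL1 and LRL2 were not called at any time, with log2 fold changes of -0.13 to 0.13 and of -0.44 to 0.03. CSLD3, a cellulose synthase-like protein of growing hairs, was not called either, at 0.15, 0.29 and -0.17. FER, the receptor kinase FERONIA that acts with LRX proteins, rose by 1.43 at 1 h (adjusted p = 0.0252) and by 1.201 at 3 h (adjusted p = 0.0258, edgeR), and had a log2 fold change of 0.97 at 2 h that was not called. Its level was 58.3 ± 27.9 CPM in PEG at 1 h and 51.3 ± 17.9 CPM at 3 h, against 22.5 ± 7.44 CPM in water (SD, n = 3 each).

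In shoots, 3, 6 and 5 of 11 tested other extensins fell at 1, 2 and 3 h and none rose. Enzymes that modify extensins fell in 0, 0 and 3 of 15 cases, and of the root hair list 4 genes were tested, of which none fell and 1, LRL1, rose at 3 h. Of all genes tested in shoots, 1.07%, 5.65% and 11.5% fell at these times.

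Markers of root hair cells were lower in PEG as a sum, though not each of them. The summed level of 5 measured markers of 6 listed, all of which are also in the root hair list, was 31.6 to 61.4 CPM in PEG, against 179 to 193 CPM in water, and 1 marker was at 0 in 1 PEG library. EXPA7, picked after its values were seen, and EXPA18 supplied most of that sum in water, at means of 74.2 and 74.0 CPM. RHD6 (AT1G66470), a bHLH regulator that starts hair formation and is one of the 5 markers, had log2 fold changes of 0.06, 0.23 and 0.11 and was not called. Endodermis markers, 6 measured of 8, summed to 752 to 938 CPM at 1 h, 508 to 574 CPM at 2 h and 297 to 358 CPM at 3 h in PEG, against 921 to 984 CPM in water. Of 4 xylem markers tested, of 6 measured, only XCP2, a cysteine protease of xylem, fell, and it averaged 183, 155 and 113 CPM in PEG at 1, 2 and 3 h, against 327 CPM in water. The summed level of the 6 was 140.3 to 261 CPM in PEG, against 347 to 393 CPM in water, and the other 3 tested were not called. The 2 cortex markers summed to 98.1 to 137 CPM at 1 h, 83.2 to 108 CPM at 2 h and 68.0 to 107 CPM at 3 h in PEG, against 115 to 118 CPM in water, so that the sum in PEG lay below that in water at 2 and 3 h. Of the 2, AT1G62500 was not called at any time. AT1G09750 was called at 3 h alone, with a log2 fold change of -0.78. The 2 markers of non-hair epidermis summed to 10.3 to 20.5 CPM at 1 h, 17.1 to 20.29 CPM at 2 h and 25.7 to 28.7 CPM at 3 h in PEG, against 20.31 to 27.6 CPM in water, with PEG just below water at 2 h and overlapping it at 1 and 3 h. That sum was nearly all GL2, since MYB66 averaged 0 CPM in water and 0.830 CPM in PEG at 3 h. GL2 was called lower at 1 h, at -0.58 (adjusted p = 0.0478, edgeR), and was not called at 2 h (-0.37) or 3 h (0.11). At each time the ranges of PEG and water overlapped for phloem and root cap, for example 231 to 302 CPM in PEG at 3 h and 251 to 276 CPM in water for phloem. The part of such shifts in the extensin values was not tested. Of the single markers named here, all but EXPA18 were picked after their values were seen. Photosynthesis transcripts, 8 of 8 measured, summed to 463 to 1034 CPM in PEG roots and 480.3 to 655 CPM in water roots, against 69365 CPM in the lowest shoot library.

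Among 6772 other genes with a mean of at least 10 CPM over the 12 root libraries, those most like the sum of the 9 extensins on log2(CPM + 1) were found by Pearson r. As a description over 12 libraries that share their groups, AT2G43150 came first at 0.995, and AZI1, a lipid-transfer-like protein, POM1, a chitinase-like protein of cell expansion, HCT, an enzyme of lignin synthesis, AT2G14850, AT3G03000, AT5G44380 and PCR2, a zinc transport protein, followed at 0.978 to 0.966. Since that sum follows EXT3, the search was repeated on the sum of the other 8, a choice made after the values were seen. The nearest were then AT3G54580 at 0.994, MAP18, a microtubule-associated protein, at 0.990, AT5G04960, HRGP1, the peroxidase AT5G17820, MOP10, a proline-rich protein of root hairs, HAK5, a potassium transporter, and AT5G14330 at 0.984. The r over 12 libraries includes the step from water to PEG. Over the 9 PEG root libraries alone, r was 0.879 to 0.987 for the first 8 genes and 0.685 to 0.922 for the second 8. No gene was in both lists of 8. Of these, AT2G43150, AT3G54580 and HRGP1 carry 22, 68 and 47 of the serine-proline repeats. AT3G54580 averaged 117, 89.2 and 96.2 CPM in PEG at 1, 2 and 3 h, against 835 ± 41.3 CPM in water (SD, n = 3).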

How the data were processed

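RNA was taken from 12 root and 12 shoot samples in 8 groups of 3. Per the submitters' processing notes, the tools were bcl2fastq, cutadapt, STAR version 2.4.2a, HTSeq and DESeq2. The genome build, the use of molecular identifiers, strand and multi-mapped reads are not given in the sources used here. The authors deposited 1 table with raw counts of every gene in every library, per the file headers, and these were the values used.

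Counts were analysed in R 4.3.3 with edgeR 4.0.16 (limma 3.58.1). The 12 libraries of a tissue were fitted together with 4 group means after filterByExpr and TMM scaling, and a robust quasi-likelihood test, two-sided, was adjusted by Benjamini-Hochberg over all genes tested. A gene was called at an adjusted p under 0.05. Symbols and sequences came from RefSeq (TAIR10.1), matched by identifier, which found 18125 of 18240. The fits were tested on simulated data. The members and lists were chosen with earlier results of these data known. Of each list the 6 genes of highest root level were named, along with the 8 genes most like the summed extensins, and any other is marked. Alternatives were another scaling, DESeq2 1.42.0, no filter, 1 joint fit, a replicate block, the library code digit as a term and each replicate left out. A limit for a count of 0 was set at 3 counts.

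Replicates of each group differed beyond sampling noise, with a chi-square per degree of freedom of 2.63 to 8.91. Within a tissue the replicate letters showed no steady pairing of samples between groups. Root and shoot libraries of the same letter were not compared for pairing.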

Additional observations from a re-analysis of the deposited data

How the results depend on the processing

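Without EXT3 the summed extensins in roots had log2 ratios of -3.18, -3.94 and -3.74 at 1, 2 and 3 h, against -1.12, -1.49 and -2.05 for all 9, and with the library code digit as a further term, a choice made after the data were seen, -3.43, -4.32 and -4.12. The sum of 9 kept its direction under all alternatives, and ranged from -1.32 to -1.05, from -1.64 to -1.43 and from -2.18 to -1.95 with 1 replicate left out. With the digit as a term, the genes called in roots numbered 629, 613 and 987, against 2248, 2744 and 4440, and those in shoots at 3 h 2364, against 3578. In that fit the related genes that fell numbered 20, 23 and 24, against 28, 33 and 33, and over the 12 alternatives at each time they numbered 20 to 30, 23 to 36 and 24 to 38. With 1 replicate left out, genes called in roots numbered 1249 to 2495 at 1 h, and genes called in shoots 397 to 679, 857 to 2135 and 2531 to 3334, against 733, 1905 and 3578. The fewest in roots at 1 h came without PEG 1 h replicate 2, and the fewest in shoots at 1 and 2 h when water replicate 1 or PEG 2 h replicate 1 was left out. Of the 9 extensins, 1 was called in shoots at each time. The number was 2 at 1 h and 2 at 3 h with no filter, 4 and 5 in 1 fit of all 24 libraries, where low shoot counts passed through the root libraries, and 0 at 2 and 3 h with the digit as a term. With 1 replicate left out it was 0 to 1 at 1 and 2 h and 1 to 2 at 3 h. Related genes called higher in roots numbered 0 to 2 throughout. The cause of these shifts was not tested beyond the construction of each fit.

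Scaling by plain library totals moved the median log2 fold change of all root genes to 0.15 and 0.22 at 2 and 3 h, against 0.06 and 0.07. Within a tissue the replicate letters showed no steady pairing between groups: 7 of 18 same-letter correlations in roots and 2 of 18 in shoots were over 0.1. Pairing of root with shoot was not checked. With the replicate block, 2226, 2730 and 4415 genes were called in roots, and no call of an extensin changed. Depth limits the shoot values of the 7 extensins, which had 0 to 8 counts per gene and library.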
